A study of Mus musculus with 6 samples.

Results

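The NRF2, KEAP1 and BACH genes and direct NRF2 targets examined here were 10 genes named by symbol: the regulators Nfe2l2, Keap1, Bach1, Bach2 and Mafg, and the targets Nqo1, Srxn1, Txnrd1, Osgin1 and Hmox1. All 10 were found among the 55401 gene rows of the deposited count table, by mouse Ensembl identifier, and all 10 were among the 18253 genes that passed the filter on low counts. RNA was sequenced from wild-type mouse pup cells labelled as group 3 innate lymphoid cells (ILC3s) of the small-intestinal lamina propria, in 3 libraries of cells pretreated with PEox and 3 of cells pretreated with vehicle. ILC3s are mucosal lymphocytes without antigen receptors that secrete interleukin 22 and interleukin 17. PEox is not spelled out in the labels and is the usual abbreviation of oxidised phosphatidylethanolamine in work on ferroptosis, an iron-dependent death by lipid peroxidation. The sources used here give no dose, no exposure time and no count of animals per library. The p-values therefore reflect the spread among these 6 libraries, and that spread may be technical.

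Nfe2l2 encodes NRF2, a transcription factor that turns on genes against oxidants and electrophiles. KEAP1 holds NRF2 in a CUL3 ubiquitin ligase complex that sends it for degradation, and oxidants or electrophiles that modify cysteines of KEAP1 let NRF2 accumulate, so much of the control acts on the protein, which was not measured here. NRF2 pairs with a small MAF protein such as MAFG and binds antioxidant response elements in its target genes, where BACH1 and BACH2, bound to the same small MAF partners, repress. BACH1 leaves DNA when it binds haem, and BACH2 is best known in lymphocytes, where it restrains effector and plasma cell differentiation.

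The label was examined against marker genes, because the protocol text names sorted EpCAM-positive, CD45-negative epithelial cells. The 14 ILC3 markers, among them Il22 and Il7r, summed to 8458 to 8525 CPM (counts scaled to library depth with TMM factors) in PEox libraries and to 14560 to 14830 CPM in vehicle libraries. Of these markers 7 were called lower and 2 higher in PEox. Il22 alone averaged 2513 CPM in PEox and 6724 CPM in vehicle, whereas the higher ones were Il17f at 992 CPM in PEox and 589 CPM in vehicle, and Kit at 418 CPM in PEox and 223 CPM in vehicle. The 12 epithelial markers summed to 74.6 to 76.2 CPM in PEox libraries and to 106.6 to 120.1 CPM in vehicle libraries, with 5 of them, Fabp1 and Vil1 included, under 1 CPM in every library. Epcam itself was present, at 28.5 to 35.8 CPM in PEox libraries and 48.6 to 55.6 CPM in vehicle libraries, as were the keratin genes Krt8 and Krt18 at 12.1 to 17.5 CPM in PEox libraries and 17.5 to 34.5 CPM in vehicle libraries. Sums over B cell, mast cell, macrophage, T cell and ILC1 or natural killer cell markers were also lower in PEox. The T cell list was mixed, with 5 of 10 called lower and 1 higher. The higher one, Cd4, averaged 14.8 ± 4.15 CPM in PEox and 8.46 ± 1.80 CPM in vehicle (SD, n = 3 each). Lat held most of the T cell sum, at 141 CPM in PEox and 142 CPM in vehicle. The 8 erythroid markers found summed to 5121 to 5808 CPM in PEox libraries and to 2755 to 2802 CPM in vehicle libraries, nearly all of it haemoglobin. Alas2, the erythroid enzyme of haem synthesis, averaged 26.6 ± 4.42 CPM in PEox and 4.82 ± 0.73 CPM in vehicle (SD, n = 3 each), while Slc4a1 and Klf1 stayed under 1 CPM. Total counts ranged from 56252806 to 66849230 per library. In bulk RNA, fewer cells of a type and less RNA per cell cannot be told apart.

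Sequence upstream of the genes was read from RefSeq promoter windows of build GRCm38.p6, which gave 11 windows for 9 of the 10 members (3 for Txnrd1). Each window held 250 bases before and 50 bases after an annotated start. Hmox1 had no window and was not searched. The antioxidant response element core was searched on both strands as TGACNNNGC and as TGAGNNNGC, and within it the full 9-letter site TGACTCAGC or TGAGTCAGC. Either core occurred in 27.8% of all 32851 windows in the table, and either full site in 0.822% of them. Among the 9 members with a window 6 genes held 8 core matches, and 2 genes, Srxn1 and Osgin1, held a full site. These are counts of genes, with 3 windows for Txnrd1, whereas the 2 percentages are of windows. The 250 bases upstream of the start are shown for 4 targets, of which the first 2 hold a full site, Txnrd1 holds a core match at the second of its 3 starts, and Nqo1 holds none in this window. Capitals mark core matches, and a match on the opposite strand reads as its reverse complement.
Srxn1 (chr2:152105274-152105523, plus strand): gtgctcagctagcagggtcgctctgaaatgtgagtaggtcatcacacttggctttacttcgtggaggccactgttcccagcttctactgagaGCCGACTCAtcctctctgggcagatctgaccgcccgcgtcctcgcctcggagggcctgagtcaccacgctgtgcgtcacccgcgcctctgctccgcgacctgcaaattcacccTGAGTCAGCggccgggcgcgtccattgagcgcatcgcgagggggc
Osgin1 (chr8:119436897-119437146, plus strand): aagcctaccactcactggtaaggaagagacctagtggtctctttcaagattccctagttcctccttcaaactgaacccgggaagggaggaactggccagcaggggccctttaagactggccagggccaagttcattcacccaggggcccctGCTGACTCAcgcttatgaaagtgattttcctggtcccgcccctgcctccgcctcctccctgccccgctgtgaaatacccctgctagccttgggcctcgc
Txnrd1 (chr10:82858956-82859205, plus strand): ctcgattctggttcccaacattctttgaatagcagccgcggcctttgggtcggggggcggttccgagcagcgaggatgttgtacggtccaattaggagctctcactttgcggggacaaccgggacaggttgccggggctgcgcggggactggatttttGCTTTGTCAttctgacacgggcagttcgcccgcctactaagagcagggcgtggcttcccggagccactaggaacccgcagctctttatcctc
Nqo1 (chr8:107403206-107403455, minus strand): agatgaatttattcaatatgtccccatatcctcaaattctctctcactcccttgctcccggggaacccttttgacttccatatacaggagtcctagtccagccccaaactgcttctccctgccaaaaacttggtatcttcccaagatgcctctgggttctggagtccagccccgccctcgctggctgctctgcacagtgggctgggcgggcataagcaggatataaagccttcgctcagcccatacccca
The full site of Srxn1 began 45 bases before the start, on the gene's strand, and that of Osgin1 lay 99 to 91 bases before the start, on the opposite strand. Srxn1 also held a core match on the opposite strand 158 bases before the start, and another on that strand 28 bases after it. Core matches at Nfe2l2 and Mafg began 240 and 222 bases before the start and that of Bach2 began 73 bases before it, whereas the windows of Keap1 and Bach1 had none. A match is a description of letters and not evidence of binding.

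**Figure D1:**
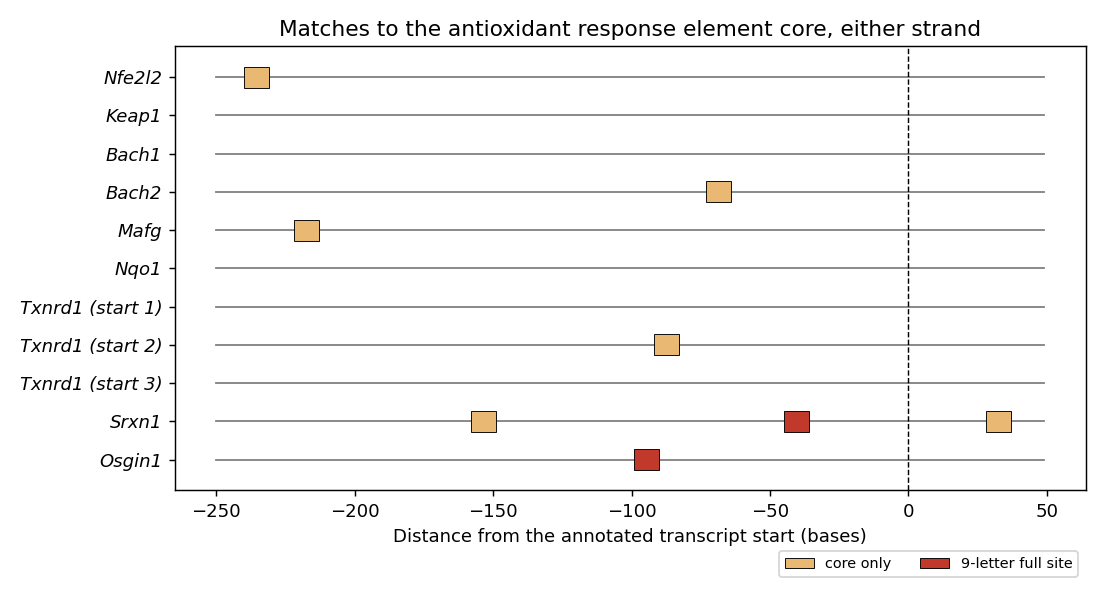
Each row is 1 RefSeq promoter window of a member and the horizontal axis is the distance in bases from the annotated transcript start (dashed line). Boxes are matches to the antioxidant response element core on either strand, and red boxes are full 9-letter sites, which appear at Srxn1 and Osgin1 only. Hmox1 had no window and was not searched.

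PEox was compared with vehicle to see how the pretreatment altered gene expression in these cells. All 5 targets and 2 of the 5 regulators, Nfe2l2 and Mafg, were higher in PEox, 7 of 10 members in all, while Keap1, Bach1 and Bach2 did not pass and none was lower. The call was an adjusted p under 0.05 by edgeR's quasi-likelihood test with Benjamini-Hochberg adjustment over all tested genes, which 37.1% of tested genes passed, 18.3% as higher and 18.8% as lower. CPM values of the groups did not overlap for 8 of 10 members, all with PEox above vehicle, against 50.6% of all tested genes in either direction and 24.1% with PEox above. The 5 targets together held 2207, 2261 and 2132 CPM in PEox libraries 1 to 3 and 877, 913 and 864 CPM in vehicle libraries 1 to 3. Relative to the TMM-scaled library size this was 0.22% in PEox and 0.0885% in vehicle, a ratio of 2.49. These sums carry no test.

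**Figure D2:**
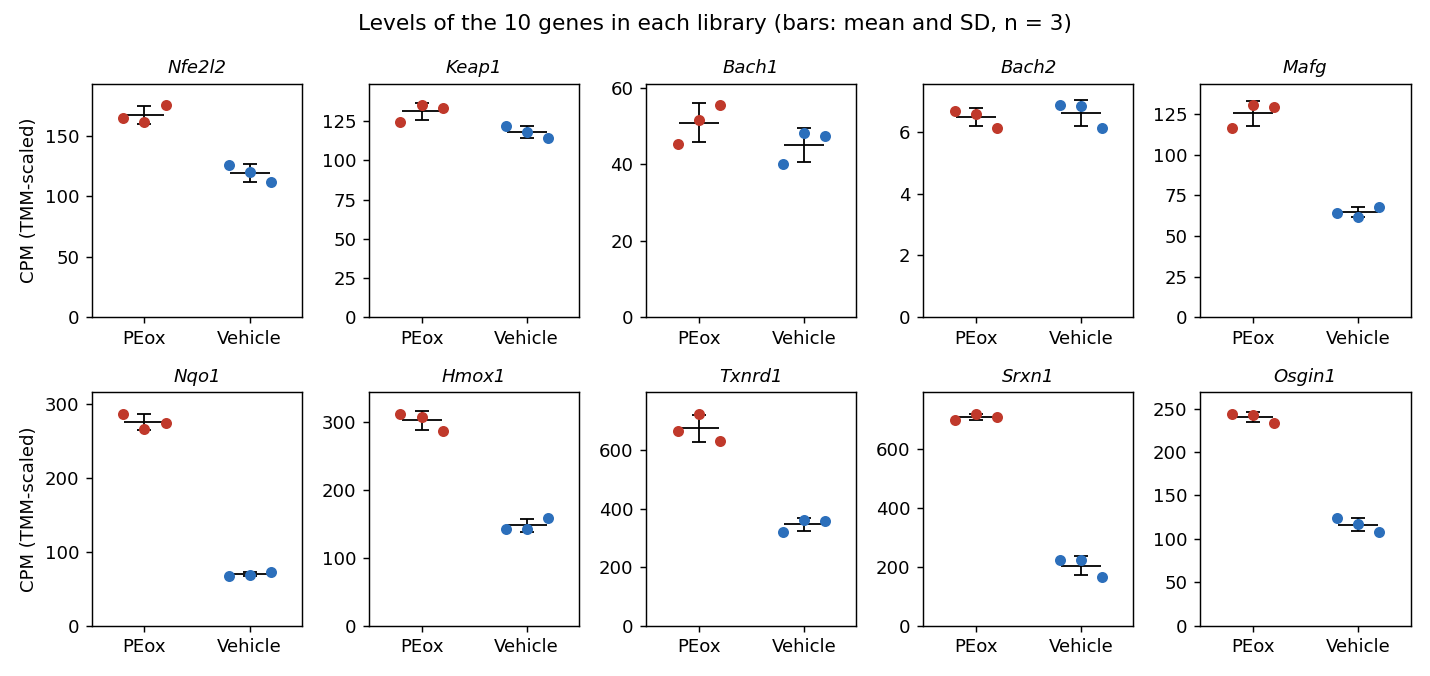
Each panel is 1 gene, with its TMM-scaled CPM on a vertical axis from 0 in the 3 PEox and the 3 vehicle libraries, and bars for mean and SD. The groups separate in 8 panels and overlap for Bach1 and Bach2.

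Among the targets Nqo1 and Srxn1 had the largest changes. Nqo1 encodes an enzyme that reduces quinones to hydroquinones. It had 287, 266 and 274 CPM in PEox libraries 1 to 3 and 67.9, 69.4 and 72.4 CPM in vehicle libraries 1 to 3. The lowest PEox library thus lay far above the highest vehicle library, and Nqo1 ranked 247 of 18253 tested genes by log2 fold change. Its log2 fold change was 1.98 ± 0.06 (SE; 3.95-fold; edgeR adjusted p = 4.5e-07).

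Srxn1 encodes sulfiredoxin, which restores peroxiredoxins that have been over-oxidised by peroxide. It had 697, 719.6 and 707 CPM in PEox libraries and 222, 224 and 167 CPM in vehicle libraries. PEox libraries were close to each other, with a coefficient of variation of 1.57%, whereas vehicle library 3 lay below the other 2 vehicle libraries and brought that group's coefficient of variation to 15.8%. The log2 fold change was 1.79 ± 0.11 (SE; 3.46-fold; edgeR adjusted p = 9.71e-06), and 1.66 without vehicle library 3. The 95% intervals of the log2 fold changes of Nqo1 (1.85 to 2.11) and Srxn1 (1.55 to 2.04) overlapped each other and lay above those of the other 8 members, of which Osgin1 reached highest (0.90 to 1.18).

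Txnrd1, Osgin1 and Hmox1 were each close to 2-fold higher. With the trends on transcript length and GC content removed, their log2 fold changes lay further apart, at 0.80, 1.15 and 1.31. Txnrd1 encodes the selenoprotein thioredoxin reductase of the cytosol, which recharges thioredoxin with NADPH. It had 666, 725 and 631 CPM in PEox libraries and 321, 361 and 358 CPM in vehicle libraries. The highest vehicle library stood well under the lowest PEox library, and PEox over vehicle gave 0.96 ± 0.07 as log2 fold change (SE; edgeR adjusted p = 2.04e-05).

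Osgin1 encodes oxidative stress-induced growth inhibitor 1. It had 244, 243 and 233 CPM in PEox libraries and 124, 117 and 109 CPM in vehicle libraries. The PEox libraries lay within a narrow range above all vehicle libraries, and the log2 fold change was 1.04 ± 0.06 (SE; edgeR adjusted p = 9.24e-06).

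Hmox1 encodes haem oxygenase 1, which opens haem to biliverdin, carbon monoxide and free iron, and is a classic gene under BACH1 repression. It had 312, 307.5 and 286 CPM in PEox libraries and 142, 142 and 159 CPM in vehicle libraries. PEox library 3 was the lowest of its group and vehicle library 3 the highest of its own, and the groups stayed apart. The log2 fold change was 1.03 ± 0.06 (SE; edgeR adjusted p = 1.1e-05). Hmox1 is also expressed by macrophages, whose 10 markers summed to 138 ± 15.0 CPM in PEox and 249 ± 10.2 CPM in vehicle (SD, n = 3 each), with 5 of the 10 called lower and none called higher in PEox. Stromal and endothelial markers, another possible source of these targets, summed to 373 ± 12.6 CPM in PEox and 249 ± 12.6 CPM in vehicle (SD, n = 3 each), with 4 of 7 tested higher, 1 lower and 2 of the 9 listed under 1 CPM in every library. Their part in the results was not tested.

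**Figure D3:**
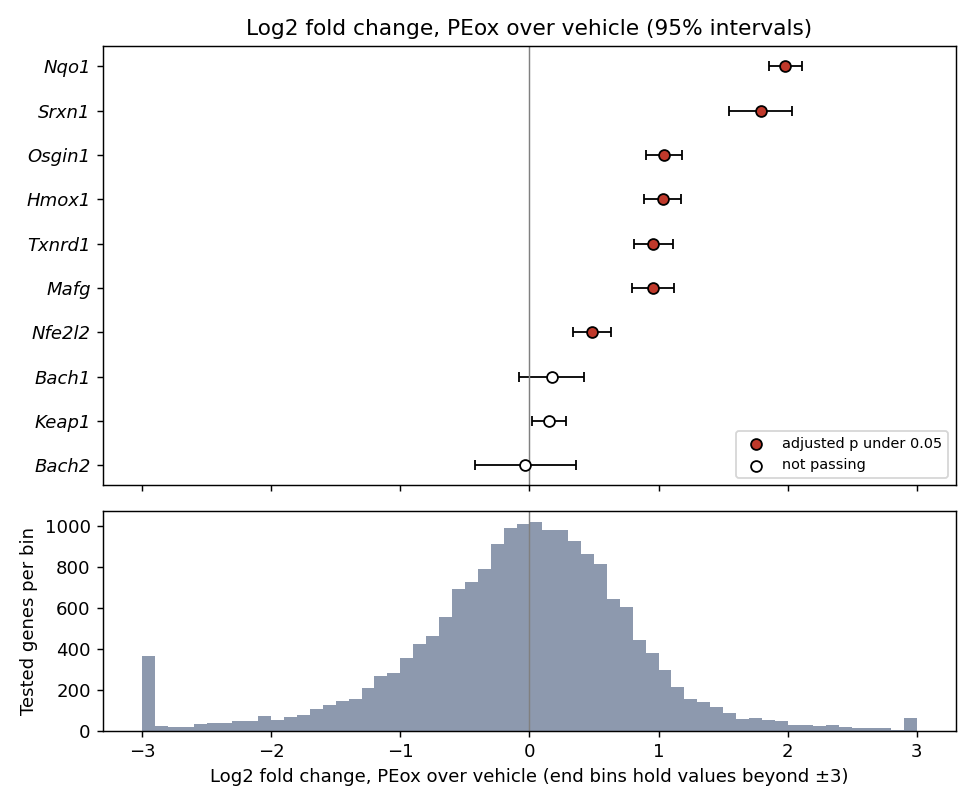
The upper panel gives each member's log2 fold change of PEox over vehicle with its 95% interval, and the lower panel a histogram of the same quantity over all 18253 tested genes. Nqo1 (1.98) and Srxn1 (1.79) stand to the right, 5 members lie between 0.49 and 1.04, and the 3 open points did not pass.

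Nfe2l2 and the small MAF gene Mafg were higher in PEox, Mafg by more. Nfe2l2 had 165, 161 and 175 CPM in PEox libraries and 126, 120.2 and 112 CPM in vehicle libraries. All PEox libraries exceeded all vehicle libraries, with a smaller distance between the groups than for any of the 5 targets. Its log2 fold change was 0.49 ± 0.06 (SE; 1.40-fold; edgeR adjusted p = 0.000556). By log2 fold change Nfe2l2 ranked 4443 of 18253 tested genes, whose upper quartile was 0.47.

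Mafg, which encodes a small MAF protein that pairs with NRF2 and with the BACH proteins, had 117, 131 and 129 CPM in PEox libraries and 64.2, 61.9 and 68.0 CPM in vehicle libraries. Its groups were clearly apart, and with 0.96 ± 0.07 (SE; edgeR adjusted p = 2.76e-05) its log2 fold change was about that of Txnrd1. In the GENCODE annotation its exons share 124 bases (2.21%) with Sirt7 on the same strand, so reads there could be counted for either gene. Sirt7 had a mean of 13007 counts per library against 5711 for Mafg.

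The inhibitor Keap1 and the repressors Bach1 and Bach2 did not pass. Keap1, the substrate adaptor that takes NRF2 to CUL3, had 125, 135 and 134 CPM in PEox libraries and 122, 118 and 114 CPM in vehicle libraries. Values in PEox were all above those in vehicle, but by little, and the log2 fold change was 0.15 ± 0.06 (SE; 95% interval 0.02 to 0.28; edgeR adjusted p = 0.0776). Keap1 passed as higher with DESeq2 (adjusted p = 0.0444) and with library size scaling in edgeR (log2 fold change 0.29, adjusted p = 0.00481), and its log2 fold change was 0.0089 (edgeR adjusted p = 0.932) with the trends on transcript length and GC content removed. An antisense gene shares 10.9% of the exonic bases of Keap1, with a mean of 173 counts per library against 7511 for Keap1.

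Bach1, the haem-sensing repressor, had 45.5, 51.7 and 55.5 CPM in PEox libraries and 40.0, 48.1 and 47.3 CPM in vehicle libraries. The groups overlapped, since PEox library 1 lay below vehicle libraries 2 and 3. The log2 fold change was 0.17 ± 0.11 (SE; 95% interval -0.08 to 0.42; edgeR adjusted p = 0.27), and it turned to -0.083 with the length and GC trends removed.

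Bach2 was the scarcest member, with 6.68, 6.58 and 6.13 CPM in PEox libraries and 6.86, 6.82 and 6.12 CPM in vehicle libraries, from 371 to 436 counts per library. The groups overlapped almost fully. The log2 fold change was -0.03 ± 0.17 (SE; 95% interval -0.42 to 0.36; edgeR adjusted p = 0.916), with a sign that turned to 0.11 under library size scaling and to 0.0079 without PEox library 3. Bach2 is also expressed by B cells, whose 10 markers summed to 61.5 ± 1.17 CPM in PEox and 345 ± 11.8 CPM in vehicle (SD, n = 3 each), with 9 of 10 lower. The part of B cell RNA in the level of Bach2 was not tested.

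Ratios within a library set members against each other without regard to library scaling. They are ratios of counts, so their size depends on transcript length. Their change between the groups moves with the length and GC trends, without which the log2 fold changes were 0.51 for Nfe2l2, 0.0089 for Keap1 and -0.083 for Bach1. The ratio of Nfe2l2 to Keap1 was 1.32, 1.19 and 1.31 in PEox libraries and 1.03, 1.02 and 0.975 in vehicle libraries, so NRF2 and its inhibitor did not keep the same proportion of transcripts. Bach1 to Nfe2l2 stood at 0.276, 0.320 and 0.317 in PEox libraries and 0.318, 0.400 and 0.424 in vehicle libraries, where PEox library 2 lay just inside the vehicle range. Nqo1 to Nfe2l2 was 1.74, 1.65 and 1.56 in PEox libraries and 0.539, 0.577 and 0.649 in vehicle libraries. The target thus differed between the groups by more than the transcript of its activator did. Srxn1 to Txnrd1 was 1.05, 0.993 and 1.12 in PEox libraries and 0.692, 0.620 and 0.467 in vehicle libraries, so that both redox enzymes were higher but in unequal measure. With 3 libraries a group, an exact 2-sided permutation test of a ratio cannot go below p = 0.1, and none was run.

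Levels of different genes were compared as CPM per kilobase of the longest GENCODE transcript. In PEox the order was Srxn1 (252 ± 3.95), Hmox1 (192 ± 8.78), Txnrd1 (186 ± 13.0), Nqo1 (178 ± 6.74), Osgin1 (104 ± 2.65), Nfe2l2 (67.5 ± 2.93), Keap1 (36.3 ± 1.57), Mafg (25.5 ± 1.56), Bach1 (8.68 ± 0.87) and Bach2 (0.728 ± 0.033; CPM per kilobase, SD, n = 3). Hmox1, Txnrd1 and Nqo1 did not differ from their neighbours among these 3 beyond the range of the libraries, and every other neighbouring pair was separate. In vehicle the order began with Txnrd1 (95.7 ± 6.12) and Hmox1 (94.1 ± 6.14), whose ranges overlapped, followed by Srxn1 (72.7 ± 11.5; CPM per kilobase, SD, n = 3). Osgin1 (50.6 ± 3.34), Nfe2l2 (48.2 ± 2.91) and Nqo1 (45.0 ± 1.49) came next, each overlapping its neighbour, and then Keap1, Mafg, Bach1 and Bach2 in the order seen in PEox. Both the levels and their order depend on which transcript is used. With the median transcript length of each gene, the levels of Srxn1, Osgin1, Mafg, Bach1 and Bach2 were over 1.5 times higher. The level of Bach2 in PEox moved most, from 0.728 to 9.82 CPM per kilobase. Srxn1 came first and Osgin1 next in both groups (Srxn1 at 1588 ± 24.9 in PEox and 458 ± 72.4 in vehicle, CPM per kilobase, SD, n = 3 each). Mafg then stood above Nfe2l2 and Keap1 in both groups, at 149 ± 9.16 in PEox and 77.0 ± 3.64 in vehicle (CPM per kilobase, SD, n = 3 each).

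**Figure D4:**
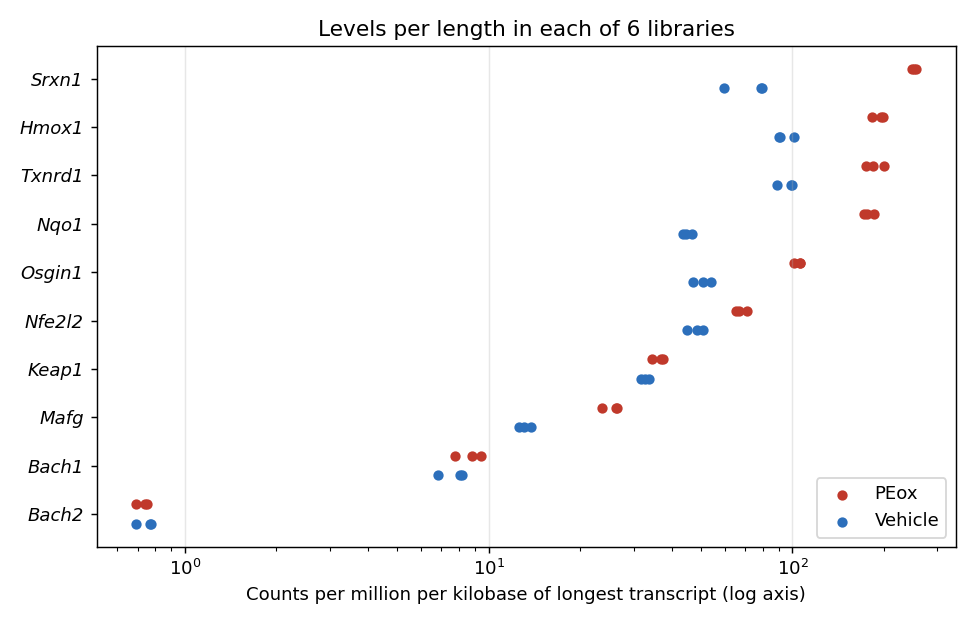
Points are single libraries, with CPM per kilobase of longest transcript on a log axis and genes ordered by their PEox mean (PEox above vehicle in each row). Srxn1 heads the PEox order at 252 and Bach2 ends both orders below 1.

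Other genes of the pathway were taken from 5 lists with 56 genes, of which 54 passed the filter. Of these 31 were higher in PEox, 6 were lower and 17 did not pass, with a median log2 fold change of 0.61, against 0.00074 over all tested genes. Of all tested genes 18.3% were higher and 18.8% lower, which is the background for the counts of each list as well. Erythroid and stromal markers, given above, were higher in the same libraries.

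Of the 13 tested genes that control or partner NRF2, 8 were higher and 2 lower, with a median log2 fold change of 0.45. The list mixes genes acting for NRF2, such as Sqstm1, with genes acting against it, such as Cul3 and Rbx1. Its counts and median, which also enter the pooled values above, are therefore not a measure of NRF2 activity. Sqstm1 encodes p62, an autophagy receptor that binds KEAP1 and takes it out of action. It averaged 2348 ± 14.9 CPM in PEox and 1232 ± 19.4 CPM in vehicle (SD, n = 3 each; log2 fold change 0.93, edgeR adjusted p = 8.88e-07). Rbx1, the RING subunit of the ligase that KEAP1 serves, was lower at 213 ± 16.5 CPM in PEox and 385 ± 6.26 CPM in vehicle (SD, n = 3 each; log2 fold change -0.85, edgeR adjusted p = 2.46e-05). The small MAF genes divided. Mafk was higher with a log2 fold change of 0.86 (adjusted p = 0.000195, edgeR), as Mafg was, whereas Maff, named after its values were seen, averaged 1.67 ± 0.50 CPM in PEox and 5.15 ± 0.97 CPM in vehicle (SD, n = 3 each; log2 fold change -1.63, edgeR adjusted p = 0.0041). Cul3, also named after its values were seen, was higher at 104 ± 4.95 CPM in PEox and 59.0 ± 6.09 CPM in vehicle (SD, n = 3 each; log2 fold change 0.82, edgeR adjusted p = 0.000198), so that the 3 core parts of the KEAP1 ligase stood at 0.15 (Keap1, not passing), 0.82 (Cul3) and -0.85 (Rbx1) on the log2 fold change scale.

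Of 12 tested targets in glutathione and thioredoxin chemistry, 6 were higher and 1 lower, with a median log2 fold change of 0.61. Gclm and Gclc, the modifier and catalytic subunits of the enzyme that starts glutathione synthesis, were higher by 1.83 and 1.46 on the log2 scale. Gstp1, a glutathione S-transferase gene, was the lower one, at 312 ± 17.3 CPM in PEox and 473 ± 14.5 CPM in vehicle (SD, n = 3 each; log2 fold change -0.60, edgeR adjusted p = 6.53e-05), and at -0.15 with the length and GC trends removed (edgeR adjusted p = 0.0236). Similar Gstp genes could share reads with it, which was not measured. Txn1, which encodes the thioredoxin that TXNRD1 reduces and which was named after its values were seen, averaged 441 ± 20.1 CPM in PEox and 446 ± 4.36 CPM in vehicle (SD, n = 3 each; log2 fold change -0.02, edgeR adjusted p = 0.798). The reductase and its substrate therefore gave different calls; the difference between them was not tested.

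Of 6 targets in NADPH supply and the pentose phosphate pathway, 4 were higher and 1 lower, with a median log2 fold change of 0.63. NQO1 and thioredoxin reductase consume NADPH. The lower one was the pentose phosphate gene Tkt, named after its values were seen (log2 fold change -0.18, edgeR adjusted p = 0.0363). G6pdx, the entry enzyme of the pentose phosphate pathway, averaged 949 ± 13.6 CPM in PEox and 429 ± 42.5 CPM in vehicle (SD, n = 3 each; log2 fold change 1.14, edgeR adjusted p = 1.08e-05). Pgd, the next NADPH-forming enzyme of that pathway, was higher by 0.66 and malic enzyme gene Me1 by 2.16 on the log2 scale, the second at 28.0 ± 6.11 CPM in PEox and 6.24 ± 1.70 CPM in vehicle (SD, n = 3 each). Among 15 detoxification and export targets 8 were higher and 1 lower, with a median log2 fold change of 0.70. Some of them were scarce, and the median was 0.62 among those with at least 5 CPM in 3 libraries. Examples named after their values were seen are Aox1, higher at 1.72 CPM in PEox and 0.27 CPM in vehicle, and the lower gene Akr1b8, at 2.03 and 4.50 CPM. The export pump genes Abcc3 and Abcc1 were higher by 1.76 and 0.97, and Htatip2 was higher by 0.72 on the log2 scale.

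Of 8 haem and iron genes under NRF2 and BACH1, 5 were higher and 1 lower, with a median log2 fold change of 0.49. Slc48a1, which moves haem out of lysosomes, averaged 304 ± 15.6 CPM in PEox and 153 ± 2.78 CPM in vehicle (SD, n = 3 each; log2 fold change 0.99, edgeR adjusted p = 6.17e-06). The ferritin genes Ftl1 and Fth1, which store iron, were higher by 0.88 and 0.60 on the log2 scale, and Ftl1 stood at 1.30 with the length and GC trends removed. Blvra, the biliverdin reductase that follows haem oxygenase and was named after its values were seen, was lower at 51.4 ± 2.35 CPM in PEox and 74.1 ± 2.95 CPM in vehicle (SD, n = 3 each; log2 fold change -0.53, edgeR adjusted p = 0.000673). Erythroid marker sums averaged 5471 ± 343 CPM in PEox and 2778 ± 23.6 CPM in vehicle (SD, n = 3 each), and their part in the haem and iron genes was not tested.

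**Figure D5:**
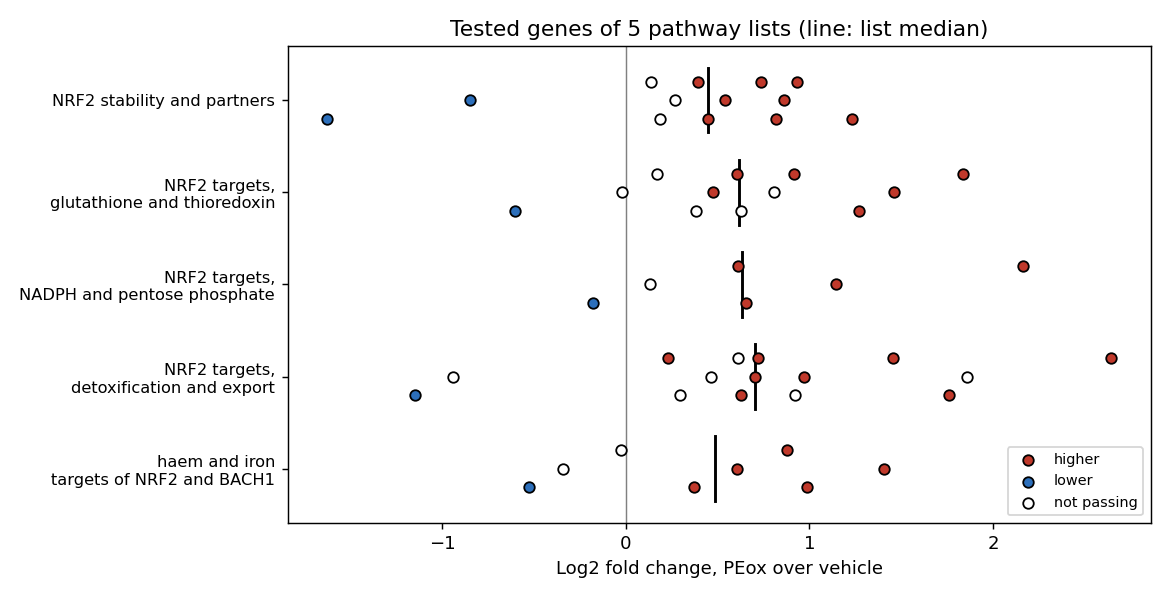
Each point is 1 tested gene of a pathway list, placed by its log2 fold change of PEox over vehicle and coloured by its call, and the vertical line is the list's median. All 5 medians lie between 0.45 and 0.70, and each list holds at least 1 lower gene.

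The genes whose profile over the 6 libraries was most like that of a member were found by the root mean square difference of log2 CPM, each gene centred on its vehicle mean, among 9819 genes with at least 5 CPM. For Nfe2l2 these were Cers2 (difference 0.025), a ceramide synthase gene, Tmbim6 (0.031), a membrane protein gene of the endoplasmic reticulum, and Wwp2 (0.033), a ubiquitin ligase gene. For Nqo1 they were Xpo1 (0.10), which encodes the nuclear export receptor, Gclm (0.12) and Tnfrsf26 (0.15), a TNF receptor family gene. Xpo1 averaged 159 ± 1.83 CPM in PEox and 41.0 ± 6.38 CPM in vehicle (SD, n = 3 each), and Tnfrsf26 averaged 165 ± 14.5 CPM in PEox and 37.7 ± 3.94 CPM in vehicle (SD, n = 3 each). The likeness rests on 2 groups of 3 libraries and is a description.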

How the data were processed

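The deposited values were raw counts per Ensembl gene, whole numbers with no normalization. Per the labels' protocols, paired reads of 150 bp passed through fastp and then HISAT2 2.0.5, and edgeR 3.22.5 is named in the submitters' processing notes. For the counter, genome build, annotation and strandedness the entry is: not given in the sources used here. Overlapping and antisense genes are uncertain for that reason. A reference table named 55141 of 55401 identifiers.

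The analysis used edgeR 4.0.16 and limma 3.58.1 under R 4.3.3, with filterByExpr, TMM factors of 0.951 to 1.05 and a robust quasi-likelihood fit on group alone. SE was taken as log2 fold change over the square root of F. With 56252806 to 66849230 counts per library, each member had at least 371 counts in every library. Alternatives were RLE and library size scaling, no filter, at least 5 CPM in 3 libraries, a replicate block, leaving out each library, DESeq2 1.42.0, limma-voom, and removal of each library's trends on transcript length and GC content (lowess, span 0.5). The fits were tested on simulated data. There the edgeR fit recovered 54% of log2 changes of 1 and 65% of log2 changes of 2 (100 genes each). It made 3 false calls among 18053 unchanged genes, so a gene that did not pass may still differ. The changed genes were drawn at random from all genes that passed the filter, scarce ones included. The rates are therefore not those of the members. The members, lists and alternatives were chosen with earlier results of these data known. Named pathway genes were, per list, up to 3 with the smallest p at 5 CPM or more. Lengths came from GENCODE M21 and upstream sequences from RefSeq.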

Additional observations from a re-analysis of the deposited data

How the results depend on the processing

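The 7 members called higher passed under every alternative run, and none of the 10 was called lower. Under those alternatives Nqo1 ran from 1.95 to 2.22, Srxn1 from 1.66 to 1.93 and Nfe2l2 from 0.44 to 0.62 on the log2 fold change scale. Keap1 was called with library size scaling and with DESeq2 only. Bach1 turned to -0.083 with the length and GC trends removed. Bach2 turned to 0.11 with library size scaling and ran from -0.086 to 0.0079 when each library was left out. Of the 54 tested pathway genes 31 were called higher, and 27 to 36 under the alternatives, with 27 without vehicle library 2 and 36 with library size scaling. The 6 called lower became 4 to 8. The 15 named pathway genes, chosen for small p, kept their calls. The count of genes called, 6775, was 5282 to 6577 when each library was left out. Library size scaling moved the median log2 fold change of all genes to 0.14 and the share of calls that were higher to 61.9%, against 49.25% with TMM. With the replicate block 6159 genes were called, with the same number of members higher (7). Deviations of same-numbered libraries correlated at 0.0054, 0.014 and -0.0058, and not every library correlated best with its own number, so the numbers were not taken as pairs.

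With median transcript lengths the PEox levels in CPM per kilobase were 85.2 for Nfe2l2, 46.4 for Keap1, 23.0 for Bach1, 9.82 for Bach2, 149 for Mafg, 258 for Hmox1, 239.8 for Txnrd1, 1588 for Srxn1 and 294 for Osgin1. Vehicle levels move by the same factors. Bach2, with 371 to 436 counts per library, had the lowest depth of the 10 genes.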
